A study of Mus musculus with 8 samples.

Results

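The probe sets described here lay far below the rest of their gene in the cortex of wild type mice, and the question was which of them gained signal without Nova2. They were chosen by their wild type values alone: the gene value, which is the median log2 signal over the probe sets naming that gene alone, had a wild type mean of 9 or more, and the probe set had a wild type mean at least 2.5 log2 below it. Of 391597 probe sets on the array, 225486 named exactly 1 gene in a gene with 5 or more such probe sets, and 7203 of these, in 2671 genes, met the rule. A probe set that covers an exon left out of most transcripts would be dim in this way. The exons that the probe sets cover were not analysed here, and poor binding of a probe and skipping of an exon cannot be told apart by a low signal, so they are called dim probe sets below.

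The mice were of the CD1 strain and 10 days old, with 4 wild type and 4 Nova2 KO cortex samples, each taken as a separate mouse. Total RNA of each sample was read on its own Affymetrix exon array, and the values are log2 signals with a floor at about 4. The sources used here do not give the part of Nova2 that the knockout removes, or the cells in which it was lost.

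Nova2 is an RNA-binding protein of neurons that recognises clusters of a short CA-containing motif in unspliced transcripts. Where it binds decides its effect: binding in or just before an alternative exon tends to silence the exon, and binding in the intron after it tends to enhance inclusion. An exon that Nova2 silences would be dim beside its gene in wild type and brighter in the knockout. Genes with known Nova-dependent exons encode adhesion molecules, receptors, channels and cytoskeletal proteins of the synapse and axon.

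As a check of the labels, Nova2 probe set 5294108 read 8.87, 8.65, 8.53 and 8.66 log2 on wild type arrays 1 to 4 and 6.28, 7.17, 7.26 and 6.73 log2 on Nova2 KO arrays 1 to 4. All 4 knockout arrays lay below all 4 wild type arrays, with a difference of -1.82 log2 (SE 0.22, limma adjusted p = 0.162 over the whole table). Of the 16 Nova2 probe sets none passed, and the next by p, 4414499, was higher in the knockout, with means of 7.67 and 8.37 log2 (difference 0.70 log2, SE 0.14). No Nova2 probe set was among the dim ones. Over the whole table, array medians ran from 7.02 (wild type 4) to 7.37 log2 (Nova2 KO 2), and the arrays numbered 4 in both groups had the most values at the floor (3.34% and 2.20%, against 0.991% to 1.53% on the others). Lists of marker genes put the mean level of excitatory cortical neuron genes at 9.48 to 9.68 log2 in wild type and 9.53 to 9.79 log2 in the knockout. Oligodendrocyte genes lay at 8.86 to 9.01 log2 in wild type and 8.50 to 8.71 log2 in the knockout, with 2 of 11 genes past the threshold, and their part in the results below was not tested. The cortex is a mixture of cells, so more cells that use an exon and more use of it per cell cannot be told apart.

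The dim probe sets made up 10.9% of the 65860 probe sets of the 3472 genes at 9 log2 or more. Their wild type means ran from 4.00 to 10.38 log2, with a median of 6.21 log2 and the middle part of the distribution between 5.50 and 6.79 log2. The median gap to the gene was 3.59 log2, which puts a typical dim probe set at 8.31% of its gene's signal, and the widest gap was 8.17 log2. In 952 genes a single probe set met the rule, and in 408 genes 5 or more did. The genes with the most were Dst (20 of 140 probe sets), which encodes the cytoskeletal linker dystonin, Dlg2 (19 of 56), the postsynaptic scaffold PSD-93, Ank3 (18 of 77), ankyrin-G of the axon initial segment, and Sptbn1 (17 of 60), a beta-spectrin. All 4 wild type arrays stood at the floor for 46 dim probe sets, and at least 1 of them did for 591, among them 254 where wild type 4 was the single such array. The spread between mice was wide: the median SD over the 4 wild type arrays was 0.411 log2 for dim probe sets and 0.162 log2 for the other probe sets of the same bright genes. At the edge of the rule, the 3 probe sets just inside had gaps of 2.50017 (Mfn2), 2.50022 (Tmem94) and 2.50031 log2 (St3gal2), and the 3 just outside had gaps of 2.49995 (Tsc2), 2.4999 (Ogdh) and 2.49986 log2 (Sv2b).

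Most dim probe sets stayed dim in the knockout. The same rule applied to the Nova2 KO arrays chose 7319 probe sets, and 6457 were chosen in both groups. Of the 746 dim probe sets that no longer met it, 319 belonged to genes whose value was below 9 log2 in the knockout, and 427 had a gap below 2.5 log2. For only 8 was the Nova2 KO gap under 1.5 log2, and for 2, in Chl1 and Ank3, it was under 1 log2. The 8 include Cdk4 5616409, which was low only on wild type 4, and BC031181 4490121, which was low only on wild type 3 and 4 within its group. Both were bright on the other wild type arrays.

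Exon usage was tested with the index, which is the log2 signal on an array less that array's gene value, as Nova2 KO minus wild type. A positive difference means that the probe set gained on its gene. In all, 4 of the 7203 dim probe sets rose past an adjusted p of 0.05 (limma, Benjamini-Hochberg over all 225155 probe sets tested), against a background of 0.00355% higher calls over all tested. They lay in Chl1, Adam22, Ank3 and Grik2, all genes of the neuronal surface or the membrane skeleton. None fell past the threshold with limma (at an unadjusted p under 0.05, 289 were lower), where the background of lower calls was 0.00577%. Dim probe sets lie near the floor of about 4 log2 in wild type (median 6.21, lower quartile 5.50 log2). A fall therefore had less room than a rise, and the lack of falls cannot be read as a direction. In plain signal, without division by the gene, the probe sets of Chl1 and Ank3 passed, against backgrounds of 0.00128% higher and 0.000255% lower over 391596 probe sets tested, and no dim probe set was lower past it. At an unadjusted p under 0.05 in limma, 336 dim probe sets were higher in signal and 160 lower, against backgrounds of 3.51% and 2.44%. The signals of the groups did not overlap for 163 higher and 82 lower dim probe sets (backgrounds 3.55% and 2.18%). The wild type arrays both chose the probe sets and enter this test, so the count is a description of which dim probe sets moved and not independent support for the choice.

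Chl1 encodes a neural adhesion molecule of the L1 family. Its probe set 5427955 read 6.65, 7.07, 6.99 and 6.64 log2 on wild type arrays 1 to 4 and 9.83, 10.47, 9.72 and 9.88 log2 on Nova2 KO arrays 1 to 4. Every knockout array was above every wild type array, and the gap between the groups was far wider than either group. The index rose by 2.88 log2 (7.37-fold, SE 0.21, 4 mice in each group, limma adjusted p = 0.0084), and the signal by 3.13 log2 (SE 0.20, limma adjusted p = 0.0141). Relative to the gene, the probe set went from 10.3% to 75.5%. Chl1 has 7 dim probe sets among 41, and the other 6 had index differences of -0.66 to -0.11 log2, none past the threshold. The gene value itself differed by 0.25 log2 (SE 0.10, limma adjusted p = 0.384).

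Ank3 encodes ankyrin-G, which anchors channels and adhesion molecules to the spectrin skeleton. Its probe set 5060679 read 7.05, 7.13, 6.93 and 6.71 log2 in wild type and 9.96, 9.80, 9.54 and 9.22 log2 in the knockout, in the order of the array numbers. The groups did not overlap, and the probe set went from 11.2% to 75.8% of its gene. The index rose by 2.76 log2 (6.78-fold, SE 0.15, limma adjusted p = 0.00477) and the signal by 2.68 log2 (SE 0.19, limma adjusted p = 0.0223). A further dim probe set of Ank3, 4644860, chosen for mention after its values were seen, spread widely in wild type, at 4.91, 6.29, 6.85 and 7.72 log2, and stood at 8.55, 8.32, 8.98 and 8.48 log2 in the knockout. The knockout arrays again all lay above the wild type arrays, and the index differed by 2.22 log2 (SE 0.49), which did not pass (limma adjusted p = 0.532). The remaining dim probe sets of Ank3 had differences from -0.13 to 0.67 log2.

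Adam22 encodes a membrane protein of the ADAM family without protease activity that binds the secreted Lgi proteins at synapses. Its probe set 4415391 read 5.63, 6.73, 6.14 and 6.02 log2 in wild type and 8.74, 8.76, 9.10 and 8.54 log2 in the knockout. The index rose by 2.78 log2 (6.88-fold, SE 0.23, limma adjusted p = 0.0156), while the signal difference of 2.66 log2 (SE 0.24) was just outside the threshold (limma adjusted p = 0.0546). Relative to the gene, the level went from 6.88% to 47.4%. A further Adam22 probe set, 4785224, named after its values were seen, had almost the same wild type level, at 6.05, 6.27, 5.50 and 6.76 log2, and stood at 8.32, 8.39, 8.60 and 8.01 log2 in the knockout. Its index differed by 2.31 log2 (SE 0.30, limma adjusted p = 0.161). Whether the Adam22 pair covers overlapping stretches of the gene was not analysed here. The other dim probe sets among the 10 of Adam22 differed by -0.24 to 0.61 log2.

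Grik2 encodes the kainate receptor subunit GluK2. Probe set 4489731 read 5.72, 6.07, 5.64 and 4.87 log2 in wild type and 8.43, 7.92, 8.29 and 7.59 log2 in the knockout, without overlap. The index rose by 2.43 log2 (5.39-fold, SE 0.17, limma adjusted p = 0.0084), from 8.24% to 44.4% of the gene, and the signal difference was 2.48 log2 (SE 0.28, limma adjusted p = 0.122). Its 3 other dim probe sets differed by -0.031 to 0.18 log2.

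**Figure D1:**
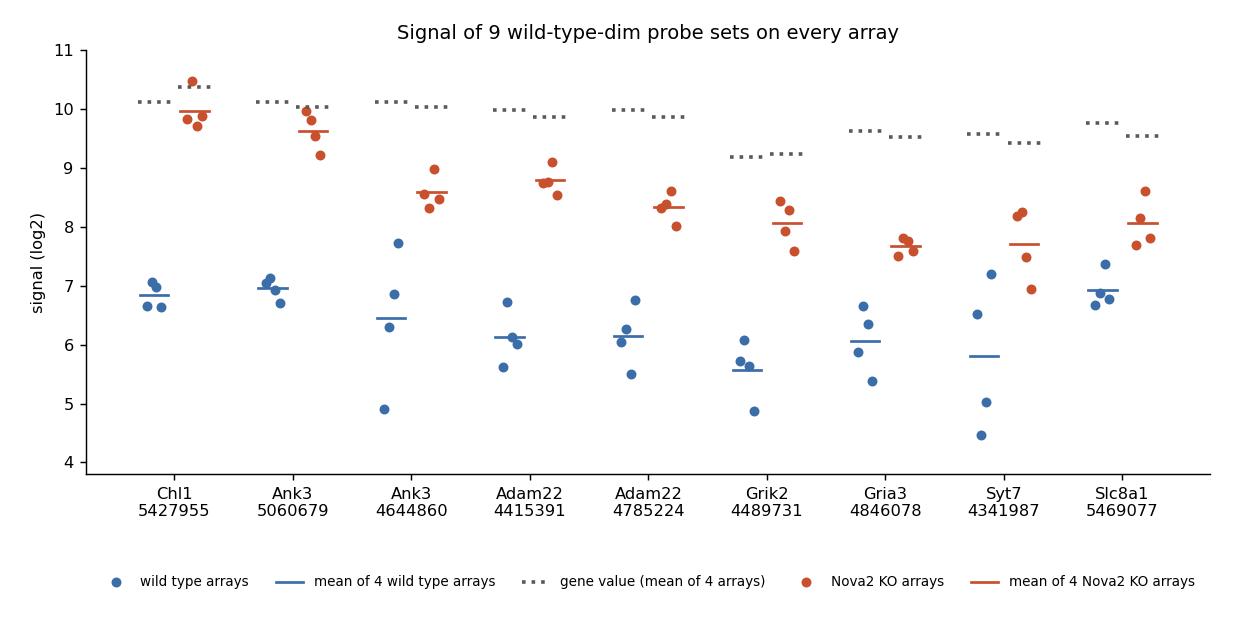
Signal (log2) of 9 dim probe sets on each array (points: blue wild type, orange Nova2 KO, 4 mice each; bars: group means; dotted lines: gene value of the group). The Chl1 probe set and Ank3 5060679 reach 9.97 and 9.63 log2 in the knockout, close to their gene, while the others stop between the wild type level and the gene.

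The calls did not all hold when an array was left out, although the sizes moved little. Ank3 5060679 kept its call without any single array, and lost it without both arrays numbered 4 (2.78 log2, limma adjusted p = 0.059). Chl1 lost it when any of 5 arrays was left out, namely wild type 4 (adjusted p = 0.0506), Nova2 KO 4 (0.0623), wild type 3 (0.0661), wild type 1 (0.068) and Nova2 KO 1 (0.0719), with differences of 2.82 to 2.93 log2 in limma. Grik2 lost it without wild type 3 (2.39 log2, limma adjusted p = 0.0605) or Nova2 KO 4 (2.48 log2, adjusted p = 0.0623). Adam22 lost it in limma without any array but wild type 2, with adjusted p from 0.0642 (without wild type 4) to 0.106 (without wild type 3) and differences of 2.62 (without wild type 1) to 2.87 log2 (without Nova2 KO 1). Without both arrays numbered 4 no dim probe set passed (at an unadjusted p under 0.05 in limma, 428 were higher and 319 lower). The shares over all probe sets were not taken for that fit, so these counts cannot be set against a background.

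By size, 7 dim probe sets were higher by over 2 log2 in the index, against 12 (0.00533%) of all tested, and none was lower by as much, against 2 (0.000888%) of all tested. The floor leaves many dim probe sets little room for a fall of 2 log2, so the 2 directions are not on equal terms. Besides the probe sets above, the 7 higher ones included Syt7 4341987, named as the leading dim probe set of the presynaptic list. Syt7 encodes a calcium sensor of vesicle release. Its wild type values were 6.52, 4.46, 5.02 and 7.20 log2 and its Nova2 KO values 8.18, 8.26, 7.49 and 6.94 log2. Nova2 KO 4 lay below wild type 4 in signal, and the index difference of 2.07 log2 (SE 0.56) did not pass (limma adjusted p = 0.621). Under 2 log2, Gria3 4846078, in a gene for an AMPA receptor subunit, read 5.88, 6.65, 6.34 and 5.39 log2 in wild type and 7.51, 7.82, 7.76 and 7.59 log2 in the knockout. Its groups did not overlap, and its index difference of 1.71 log2 (SE 0.18) just missed the threshold (limma adjusted p = 0.0613). Slc8a1 5469077, in the gene of a sodium-calcium exchanger, read 6.68, 6.88, 7.37 and 6.78 log2 in wild type and 7.70, 8.14, 8.60 and 7.81 log2 in the knockout. It differed by 1.35 log2 (SE 0.18, limma adjusted p = 0.165), and a Slc8a1 probe set that was not dim, 5482499, differed by 1.14 log2. Other Slc8a1 probe sets that were not dim moved both ways, and none passed. Among them, 4542348 and 5470942 were higher (both 0.61 log2), and 4934259 (-0.42 log2) and 4335494 (-0.40 log2) were lower. The difference in this gene was therefore not limited to the dim probe set.

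**Figure D2:**
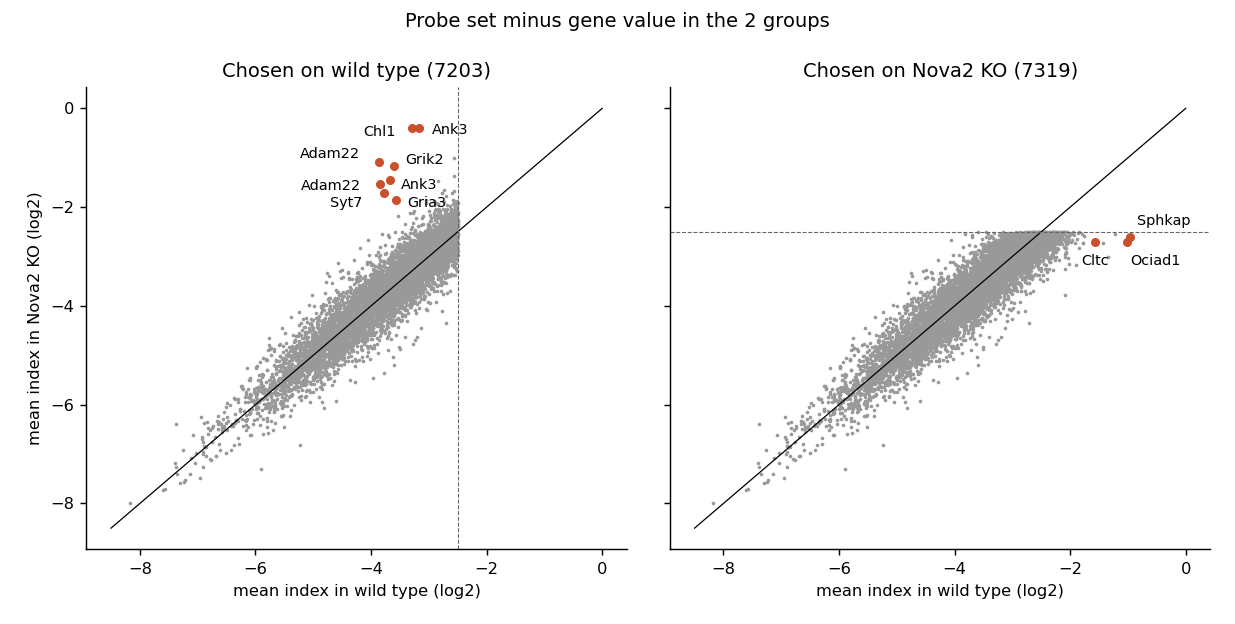
Mean index (probe set minus gene value, log2) in wild type against Nova2 KO for the 7203 probe sets chosen on wild type (left) and the 7319 chosen on Nova2 KO (right); each point is a probe set, the line marks equal values, dashes mark the 2.5 log2 gap. Orange points are those with an index difference above 1.7 log2 (left) and those with an adjusted p under 0.05 (right); most points lie along the line in both panels.

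Because the rule used the wild type arrays, the counts were also taken with other choices of members. With the members chosen on wild type, 49 had an index higher by over 1 log2 and 31 had one lower by over 1 log2, against backgrounds of 0.135% and 0.1% of all tested. Chosen on Nova2 KO, the counts were 24 higher and 49 lower, and chosen on the mean of all 8 arrays they were 32 higher and 37 lower. With an unadjusted p under 0.05, the wild type choice gave 388 probe sets with a higher index and 289 with a lower one (backgrounds 3.28% and 3.2%), the Nova2 KO choice 265 higher and 419 lower, and the choice on all arrays 324 higher and 350 lower. Index values of the groups did not overlap for 159 higher and 109 lower dim probe sets, 2.21% and 1.51% of them, against 2.0% and 2.06% of all tested. The median index difference over the dim probe sets was 0.035 log2 (over all probe sets -0.0019 log2). The SD between the medians of the 4 wild type arrays was 0.206 log2. These medians were alike for same-numbered arrays of the groups, at -3.65 and -3.66 log2 for number 1 and -3.85 and -3.76 log2 for number 4 (wild type first). The SD is therefore not a measure of the error of the difference between the groups. With the choice on Nova2 KO, 3 probe sets fell past the threshold in limma, in Ociad1 (-1.68 log2), Sphkap (-1.65 log2) and Cltc (-1.14 log2), and none was lower by over 2 log2.

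Among all probe sets tested, 8 rose, and those that were not dim were those of Gphn (4309091), which encodes the inhibitory synapse scaffold gephyrin, Adam11 (5076058), Ank2 (5483488) and Grin1 (4423042). The wild type gap was 2.28 log2 for Gphn, just outside the rule, and 0.43 log2 for Adam11. Gphn read 7.55 log2 on average in wild type and 10.13 log2 in the knockout, and went from 2.28 log2 below its gene to 0.17 log2 above it.

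Beyond Chl1, Adam22, Ank3 and Grik2, 21 further genes had a dim probe set with an unadjusted p under 0.001 and no overlap between the groups in the index, and none of them passed the adjusted threshold. Counted as probe sets, 27 of the dim ones met this in the higher direction and 12 in the lower direction, against 0.101% and 0.0999% of all tested. With the members chosen on Nova2 KO, the counts were 12 higher and 24 lower, and chosen on all 8 arrays they were 17 higher and 16 lower. The larger number of rises therefore cannot be read as a direction. Of the 25 genes, the signals themselves did not overlap in 19. The index that picked these genes contains the signal, so this count is not separate support. Psmd3, a regulatory subunit gene of the proteasome, read 5.62, 5.34, 6.43 and 6.53 log2 in wild type and 7.24, 6.83, 7.81 and 6.96 log2 in the knockout, a signal difference of 1.23 log2 (SE 0.32). Ap2a2, a subunit gene of the endocytic adaptor AP-2, went from 6.09 to 7.15 log2 on average, Dlg2 from 5.17 to 6.25 log2, and Hira, a chaperone gene of histone H3.3, from 5.99 to 6.96 log2. Birc6, which encodes a very large ubiquitin ligase that inhibits apoptosis, went from 5.23 to 6.20 log2, and Cdc42bpa, a kinase gene downstream of Cdc42, from 5.96 to 6.84 log2. Smaller signal differences were those of Zfand6 (0.79 log2), Epb41l3 (0.79 log2), the deadenylase gene Cnot7 (0.79 log2), Snph (0.65 log2), the receptor phosphatase gene Ptprs (0.64 log2), the teneurin gene Odz3 (0.62 log2) and the sodium channel gene Scn8a (0.55 log2). Levels stayed low: in 15 of the 25 genes the Nova2 KO mean was under 7 log2. Relative to the gene, Ap2a2 went from 4.37% to 9.25% and Hira from 11.7% to 22.1%.

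In the other 6 of the 25 genes, the signals of the groups overlapped, and the gene value differed by -1.08 to -0.34 log2. For Itpr1, the gene of the inositol trisphosphate receptor, the index of 4626143 differed by 1.20 log2 and the signal by 0.13 log2, while the gene value fell by 1.08 log2 (SE 0.14, limma adjusted p = 0.0137 over 11783 genes). All 5 dim probe sets of Itpr1 had a higher index, and their signals differed by -0.36 to 0.17 log2. Slc4a3, an anion exchanger gene, had an index difference of 0.73 log2 and a signal difference of -0.20 log2, beside a gene value that fell by 0.92 log2 (SE 0.13, limma adjusted p = 0.0157). Rasgrf1, an exchange factor gene for Ras, was at 0.96 log2 in the index and 0.30 log2 in signal, and its gene value fell by 0.66 log2 (SE 0.11, limma adjusted p = 0.0423). Grm2, the gene of a presynaptic glutamate receptor, was at 1.36 and 0.77 log2, Shank3, a postsynaptic scaffold gene, at 0.86 and 0.34 log2, and Camk2a, the kinase gene of excitatory synapses, at 0.74 and 0.40 log2. Their gene values differed by -0.58 (Grm2), -0.53 (Shank3) and -0.34 log2 (Camk2a), none past the threshold. The gene's difference was larger in size than the probe set's own for Itpr1, Slc4a3, Rasgrf1 and Shank3, and smaller for Grm2 and Camk2a.

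**Figure D3:**
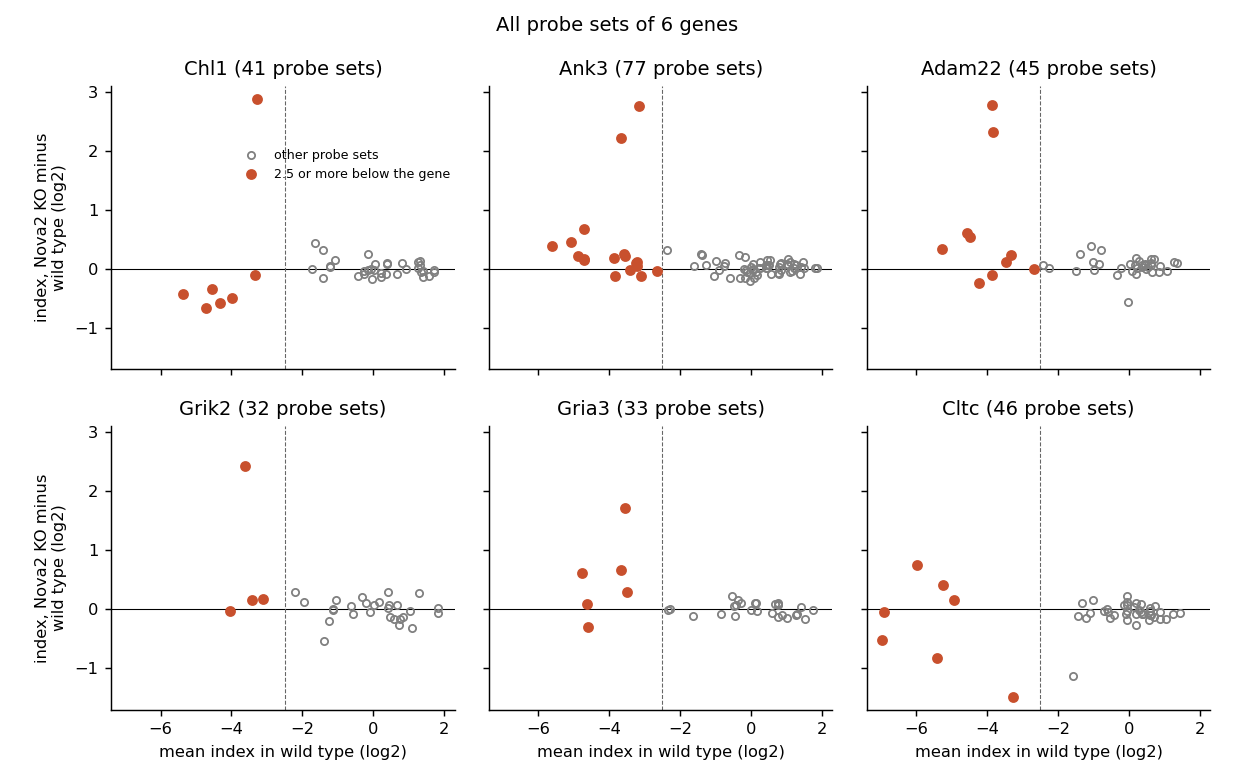
Index difference (Nova2 KO minus wild type, log2) of every probe set of 6 genes against its mean index in wild type (log2); filled points are the dim probe sets left of the dashed line at -2.5 log2, open points the others. In Chl1, Grik2 and Gria3 a single point stands apart upward, in Ank3 and Adam22 a pair does, and in Cltc a dim and a brighter probe set lie below -1 log2.

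The 5 genes with the largest lower index without overlap were Ppp1cb, Cltc, Ppp6r3, Morf4l2 and Arhgap35. In Cltc, the clathrin heavy chain gene, probe set 5188961 read 8.17, 8.07, 8.31 and 8.11 log2 in wild type and 6.73, 6.58, 7.41 and 6.46 log2 in the knockout. All 4 knockout arrays were lower, and the index differed by -1.49 log2 (SE 0.19, limma adjusted p = 0.157; without Nova2 KO 3 it fell by 1.68 log2, adjusted p = 0.0326). The brighter Cltc probe set 4553841 fell by 1.14 log2 (SE 0.12, limma adjusted p = 0.0495), from 9.88 to 8.86 log2 in signal. Ppp1cb, a catalytic subunit gene of protein phosphatase 1, read 5.87, 6.01, 6.03 and 5.59 log2 in wild type and 5.09, 4.02, 4.71 and 4.19 log2 in the knockout (index difference -1.57 log2, SE 0.26). For Ppp6r3, a regulatory subunit gene of protein phosphatase 6, the index differed by -1.43 log2, and Nova2 KO 1 stood at the floor. Arhgap35 was at -1.31 log2 and Morf4l2, a chromatin protein gene, at -1.36 log2. In Hibadh, an enzyme gene of valine breakdown named after its values were seen, all 3 dim probe sets had a lower index (-1.26, -1.02 and -0.70 log2), and none passed.

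Across gene lists, the dim probe sets of genes with a Nova-dependent exon numbered 185 in 32 genes. Of these, 2 rose (Chl1 and Ank3) and none fell with limma. At an unadjusted p under 0.05 in limma, 17 had a higher and 8 a lower index. The shares for this were 3.28% and 3.2% of all tested, and 5.39% and 4.01% of all dim probe sets. By over 1 log2, 8 were higher and 1 lower (0.135% and 0.1% of all tested, 0.68% and 0.43% of all dim probe sets). All 5 dim probe sets of Itpr1 are among the 17, and 3 of them among the 8. Their signals differed by -0.36 to 0.17 log2, while the gene value fell by 1.08 log2. The genes of this list were taken from what was known of Nova targets. Some of that knowledge may rest on Nova2 knockout brain, so the counts are not independent evidence of a direction. The median index difference of the list's dim probe sets was 0.096 log2. Ankyrins, spectrins and protein 4.1 genes had 78 dim probe sets, of which that of Ank3 rose, 57 were above 0 and the median was 0.17 log2. Neuronal adhesion genes had 133, of which those of Chl1 and Adam22 rose, and at an unadjusted p under 0.05 the index of 16 was higher and of 6 lower. The teneurin gene Odz3 kept its older symbol, was not matched to this list and is not in these counts. Ionotropic glutamate receptor genes had 29, with Grik2 past the threshold, and at an unadjusted p under 0.05 in limma 6 were higher and none was lower.

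The other lists held no dim probe set past the threshold in limma. For their counts at an unadjusted p under 0.05, the shares over all tested were 3.28% higher and 3.2% lower. Over all dim probe sets, which were chosen on low wild type values, the shares were 5.39% and 4.01%. Calcium pumps and exchangers had 37 dim probe sets of which, taking an unadjusted p under 0.05, 7 were higher and 1 lower, and the largest median of the 13 lists, 0.27 log2, with Slc8a1 and Atp2b3 (0.49 log2) leading. For Atp2b3, the signal differed by 0.20 log2 and the gene value by -0.29 log2, neither past the threshold. Presynaptic release genes had 92 (7 higher, 1 lower), led by Syt7 and Unc13a (0.39 log2), and postsynaptic genes 110 (10 higher, 4 lower), led by Shank3 and Camk2a. Kinases and small GTPase regulators had 124 (13 higher, the 5 of Itpr1 among them, and 3 lower), led by Rasgrf1 and Cdc42bpa. Endocytosis genes had 85 (5 higher, 4 lower), led by Cltc and Ap2a2. Microtubule-binding proteins and motors, had 190 (5 higher, 12 lower), of which 99 were above and 91 below 0, with a median of 0.023 log2, led by Map4 (-1.04 log2) and Mapt (-0.75 log2). The gene value of Map4 rose by 0.67 log2 (limma adjusted p = 0.0297), and the signal of its probe set differed by -0.38 log2. For Mapt, the gene value differed by 0.44 log2 and the signal by -0.31 log2, neither past the threshold. Voltage-gated and calcium-activated channel genes had 53 (1 higher, 3 lower), led by Scn8a (0.69 log2) and Scn3b (-0.84 log2). RNA-binding splicing regulators had 158 (8 higher, 5 lower), led by a pair in Nono that went opposite ways, at -0.47 (5169533) and 0.58 log2 (5394118). GABA-A and glycine receptor genes had 12, with none at an unadjusted p under 0.05, led by Gabra3 (-0.69 log2) and Glrb (0.28 log2), whose wild type arrays were all at the floor. The lists share genes, so their counts are not separate.

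**Figure D4:**
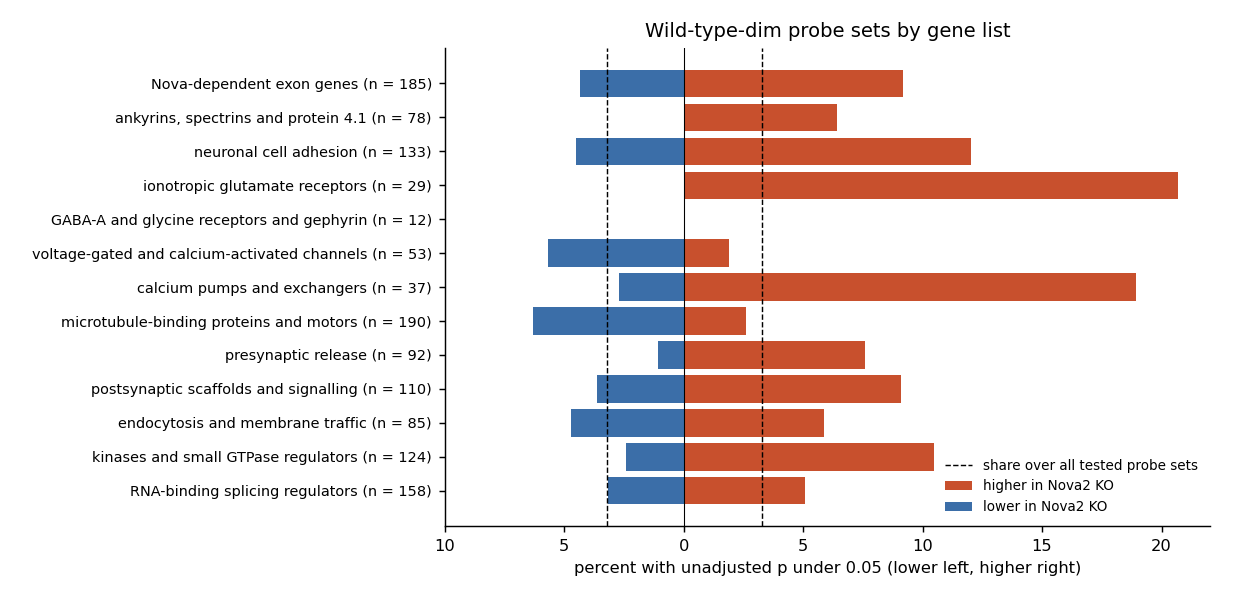
Percent of the dim probe sets of each gene list with an unadjusted p under 0.05 for the index, higher in Nova2 KO to the right (orange) and lower to the left (blue), with the number of dim probe sets (n); dashed lines mark 3.28% and 3.2%, the shares over all probe sets tested. Glutamate receptors (6 of 29) and calcium pumps and exchangers (7 of 37) reach furthest to the right, and microtubule genes reach further left (12 of 190) than right (5 of 190). Over all dim probe sets the shares were 5.39% higher and 4.01% lower, which the dashed lines do not show.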

How the data were processed

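Probe set values were deposited by the authors on a log2 scale, 1 per array, made with PLIER per the submitters' processing notes. Its version, the background correction, the normalization, the build and the choice of probe sets are not given in these sources. The lowest values lie at about 4, as an offset of 16 before the logarithm would give. Values were used as deposited. The platform annotation gave the gene names (228454 probe sets name 1 gene), with 2203 of 13017 symbols updated through the gene table of assembly GRCm38.p6.

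No filter on low values was used, because dim probe sets would pass it through their Nova2 KO signal: a filter at the 25th percentile (5.86 log2) passes 4655 of the 7203, 200 of them with a wild type mean at or below it. The index (probe set minus gene value) and the signal were tested with lmFit and eBayes of limma 3.58.1 in R 4.3.3, Nova2 KO minus wild type, two-sided, and checked on simulated data. Benjamini-Hochberg at 0.05 was taken over the 225155 probe sets tested for the index and the 391596 tested for the signal. An index without variance was not tested. Plots used Python 3.11.15 and matplotlib 3.10.9.

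The rule named every dim probe set past the threshold, then the largest rises with an unadjusted p under 0.001 and no overlap up to 25 genes, the 5 largest falls under 0.01 without overlap, and 2 probe sets per list with the lowest p, over 13 lists. The members and lists were chosen with earlier results of these data known. The number of arrays, 4 in each group, limits the precision. The sample titles number the cortex samples within each group, and each sample was taken as a separate mouse.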

Additional observations from a re-analysis of the deposited data

Results flagged for a closer look

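Within groups of 4 arrays, 5 of the 88 groups examined had an array apart from the other 3. Chance gives about 1 in 20 for groups not chosen by their values. These groups belong to named probe sets, which were chosen by their values, so that rate does not apply to the count. The probe sets of Cdk4 and BC031181 were added after their values were seen, for their wide wild type range. Cdk4 probe set 5616409 read 4.01 log2 on wild type 4 against 9.07 to 9.33 log2 on the other wild type arrays and 9.16 to 9.48 log2 in the knockout, so it met the rule through that array alone. BC031181 probe set 4490121 read 5.80 log2 on Nova2 KO 3 against 10.20 to 11.04 log2 on the other Nova2 KO arrays. Hira 5155174 was high on wild type 3 (6.28 log2 against 5.87 to 5.91 log2), below every Nova2 KO array. Odz3 4788312 was high on Nova2 KO 3 (7.20 log2 against 6.52 to 6.53 log2). Nono 5394118 was low on Nova2 KO 1 (7.69 log2 against 8.06 to 8.12 log2).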

How the results depend on the processing

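Higher exon usage calls numbered 4 as reported, 2 at a gene level of 10 and 0 without both arrays numbered 4. Leaving out single arrays gave 1 to 4 higher and 0 to 1 lower calls, and 0 to 1 higher signal calls. The deviations of same-numbered arrays correlated at 0.091, 0.332, 0.059 and 0.433 for numbers 1 to 4, all above 0, but wild type 3 and Nova2 KO 3 each correlated better with an array of another number (0.297 and 0.067), and the labels do not say that a number marks a shared source. The medians over the whole table were also close for same-numbered arrays. With wild type first, they were 7.22 and 7.24, 7.37 and 7.37, 7.37 and 7.30, and 7.02 and 7.06 log2 for numbers 1 to 4. Whether same-numbered arrays were handled together was not tested. Using the number as a replicate block left 1 higher exon usage call and 0 signal calls (647 higher and 500 lower index values at an unadjusted p under 0.05, limma), and Chl1 (limma adjusted p = 0.077), Adam22 (0.152) and Grik2 (0.118) lost theirs. The shares over all probe sets were not taken for this fit, and the 3.28% and 3.2% of the main fit do not apply to its counts. Chosen on all 8 arrays, the members held 0 higher exon usage and 0 signal calls, with Chl1, Ank3, Adam22 (4415391) and Grik2 no longer among them. Chosen on Nova2 KO they held 0 higher and 3 lower exon usage calls and 0 signal calls. The 4 called probe sets had Nova2 KO gaps of 0.40 (Chl1 and Ank3), 1.08 (Adam22) and 1.17 log2 (Grik2). They could not meet a rule of 2.5 log2 on Nova2 KO. The test of each probe set was the same under both choices, so these counts of 0 say nothing about the stability of the 4 calls. Quantile normalization gave 1 lower exon usage call (Arhgap35). Higher signal calls numbered 2 as reported, 1 with the gene value as a mean (where Ank3 and Grik2 do not meet the rule), 4 each with median centring, quantile normalization and the array median as a covariate, and 5 with a trended, robust variance prior. The number of members was 4652 with the filter, 3865 with the gene value as a mean, 12180 at a gene level of 8 and 2809 at a gene level of 10. With offset 1, Adam22 lost its call (3.10 log2, limma adjusted p = 0.0563). Gria3 passed in limma with the filter (adjusted p = 0.0275), the mean gene value (0.0258), quantile normalization (0.0069) and the array median as a covariate (0.0413). Cdk4 turned from 1.21 to -0.13 log2 without wild type 4 and to -0.054 log2 without both arrays numbered 4, and ranged up to 1.699 log2 without other single arrays. At a gene level of 10 the test of each probe set was unchanged. Adam22 and Grik2, with wild type gene values of 9.99 and 9.18 log2, did not meet that rule. For changes in calls other than those from the choice of members, the cause was not tested.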

Other observations

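Some dim probe sets were bright on some mice and dim on others, in both groups. Over the 4 wild type arrays, 66 spanned more than 3 log2, and in 44 of these wild type 4 was the lowest. A set of 4 of them, in 3 genes, shared the same arrays: BC031181 4490121, Dym 4762522, Dym 5521781 and Tnks 4682936 were low on wild type 3, wild type 4 and Nova2 KO 3 and high on the other arrays. For Dym 5521781 the values were 8.79, 9.65, 5.03 and 4.00 log2 on wild type arrays 1 to 4 and 9.13, 9.63, 4.00 and 8.74 log2 on Nova2 KO arrays 1 to 4. For Tnks, which encodes the poly-ADP-ribose polymerase tankyrase, they were 9.55, 9.08, 4.55 and 4.88 log2 and 9.10, 9.70, 4.00 and 8.98 log2. Dym and BC031181 are neighbours on 1 chromosome, with 0 protein-coding genes between them in the gene table. These probe sets were named after their values were seen, and none passed the threshold between the groups (unadjusted limma p of 0.37 for BC031181, 0.483 and 0.593 for Dym, and 0.571 for Tnks). Atp5pb 4535715, in a gene of the mitochondrial ATP synthase, was bright on wild type 4 alone (10.40 log2, against 4.39 to 4.90 log2 on the other wild type arrays).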
